A study of Mus musculus with 15 samples.

Results

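Hbegf encodes heparin-binding EGF-like growth factor, and it was examined here together with receptors of the EGF receptor family, 2 related ligands and a protease that frees such ligands. The 7 genes named for this purpose were the ligands Hbegf, Areg and Btc, the receptors Egfr, Erbb2 and Erbb3, and the sheddase Adam17. Members were the probe sets of the deposited value table that the platform annotation gives to 1 of these symbols alone. Of 12422 probe sets without controls, 8 met this rule. They stood for 5 of the 8251 genes that such probe sets name: 1 probe set for Hbegf, 3 for Egfr, 2 for Erbb3, and 1 each for Btc and Adam17. Erbb2 and Areg were not analysed here. The genes were chosen on earlier results of these arrays for the difference between TAC and sham hearts, so their values in that comparison are given as a description and without a test of their own.

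The arrays measured total RNA of mouse left ventricle from hearts put under pressure overload and from controls. There were 4 groups, with 3 female sham, 6 male sham, 3 female TAC and 3 male TAC hearts, on 15 arrays in all. TAC is the labels' name for the operation, and sham hearts are their controls. The labels give no strain, age, genotype, agent or time after the operation, nor do they say that each heart came from a separate animal, so errors and p-values measure the spread between these samples, which may be technical.

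Members of the EGF ligand family are made as proteins anchored in the cell membrane, and proteases of the ADAM family, ADAM17 prominent among them, cut them free. The freed ligand binds a receptor of the ErbB family, which pairs with another family member and switches on the Ras-ERK, PI3K and STAT pathways. HB-EGF binds the EGF receptor and ErbB4, amphiregulin binds the EGF receptor, and betacellulin binds both of the receptors that HB-EGF does. ErbB3 binds neuregulins and has little kinase activity of its own, and ErbB2 has no known ligand and acts as a partner. In mice, loss of HB-EGF is known to cause enlarged hearts and malformed valves, and shedding of HB-EGF has been linked to growth of the heart muscle.

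The arrays correlated with each other between 0.946 and 0.980 over all probe sets (Pearson r of log2 values), and their medians lay between 21.3 and 26.7 intensity units. Female TAC 1 had the lowest median and the lowest mean correlation with the others (0.956). The markers of ventricular muscle were bright on every array, with Myl2, the ventricular myosin light chain, between 6314 and 7322 units and Myh6, the adult heart myosin, between 2605 and 5968. Nppa, the atrial natriuretic peptide gene that marks the load response, lay between 111 and 307 units on the 9 sham arrays and between 1045 and 2549 on the 6 TAC arrays. Values under 20 units were set to 20 before log2 was taken, because dim signals have no reliable order, and 7453 probe sets passed a filter on mean brightness and were tested. Intensities cannot be compared between probe sets, so levels are compared only between groups for 1 probe set at a time.

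Of the 8 member probe sets, 4 passed the filter: Hbegf, Adam17 and the Egfr probe sets 101840_at and 101842_g_at. Hbegf, Adam17 and 101840_at lay above the floor of 20 on all 15 arrays, so none of these 3 passed through 1 group alone. The filter fell between the dim probe sets of Egfr and Erbb3. Egfr 101842_g_at, just inside, had a mean log2 value of 4.56, and Erbb3 101776_at, just outside, had 4.36, against a lowest tested value of 4.40.

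Among the ligands, Hbegf was higher in TAC than in sham hearts of both sexes. Its intensity was 40.1, 38.7 and 43.2 in the 3 female sham hearts. In the 6 male sham hearts it ran from 29.0 to 44.4 with a median of 34.9. In TAC hearts it was 48.6, 58.1 and 75.2 in the 3 females and 48.8, 64.1 and 53.7 in the 3 males. All 6 TAC values stood above all 9 sham values. The lowest TAC value, that of female TAC 1, was 4.18 units above the highest sham value, that of male sham 9. Such a separation upwards was found for 0.255% of all tested probe sets, and for 3.14% and 1.62% within females and within males. Divided by the median of its own array, Hbegf was between 1.19 and 1.74 in sham hearts and between 2.05 and 2.89 in TAC hearts, so the groups did not overlap on that scale either.

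The mean intensity of Hbegf was 35.3 ± 6.0 (SD, n = 6) in male sham, 40.7 ± 2.3 (SD, n = 3) in female sham, 55.5 ± 7.8 (SD, n = 3) in male TAC hearts. It was highest in female TAC hearts, at 60.6 ± 13.5 (SD, n = 3). In this order, the step from male to female sham, 5.35 units, was smaller than the larger SD of the 2 groups, and so was the step from male to female TAC, 5.11 units. The step from female sham to male TAC was 14.9 units, 1.91 times the larger SD, with no overlap. Averaged over the sexes, the log2 change with TAC was 0.61 ± 0.12 (SE), a fold of 1.52 with a 95% interval of 1.27 to 1.83. By size of log2 change Hbegf ranked 35th from the top among the 7453 probe sets. The log2 change was 0.55 ± 0.19 (SE) in females and 0.66 ± 0.16 (SE) in males.

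**Figure D1:**
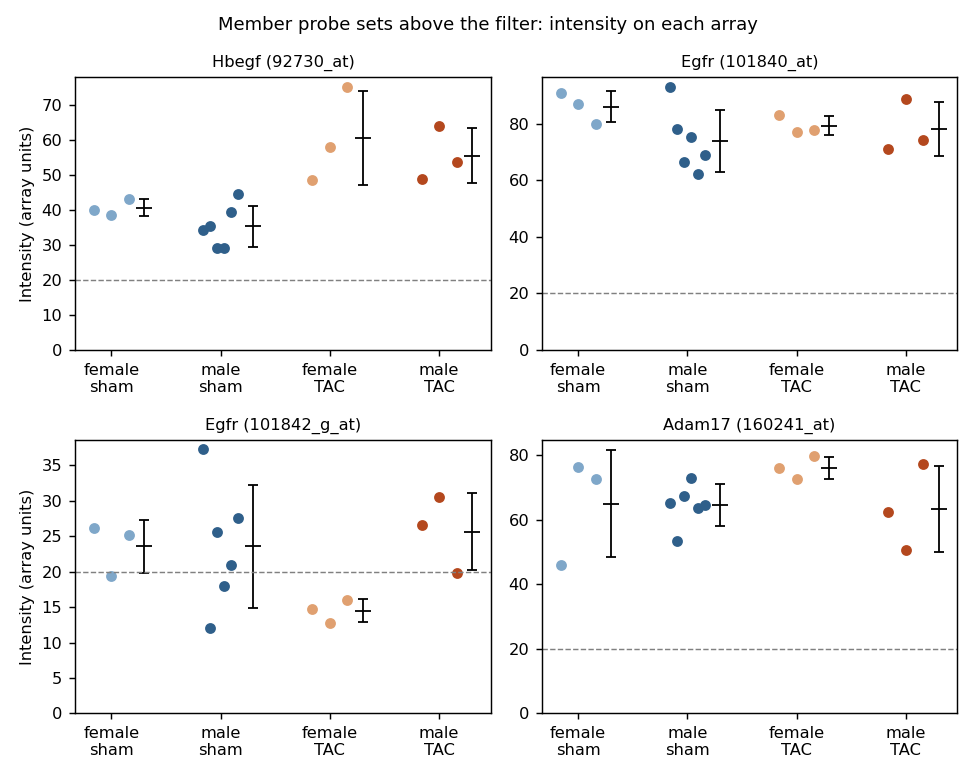
Intensity in array units on the vertical axis of each panel for the 4 member probe sets that passed the filter, with 1 point per array in 4 groups; the bars beside the points are mean ± SD and the dashed line is the floor of 20. The 6 TAC points of Hbegf, from 48.6 to 75.2, stand above its 9 sham points, while the groups of Egfr 101840_at and Adam17 overlap.

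In the fit over all tested probe sets, Hbegf was 1 of 20 called higher at an adjusted p under 0.05 (limma, Benjamini-Hochberg), and the other 3 member probe sets were not called. The share called higher was 0.268% of all tested probe sets, 0.0537% were called lower, and 0.322% were called in either direction. Since the genes were chosen on this same comparison, the call of Hbegf and the count of 1 in 4 are a description and no independent test, and nothing is read from them. None of the 4 was called in females alone, where 0.0805% of all probe sets were (0.0671% higher and 0.0134% lower), or in males alone, where 0.134% were. The call also depended on single arrays: it was kept in 2 of the 15 fits that left out 1 array, those without male sham 9 or female TAC 1, while its log2 change stayed between 0.52 and 0.68 in all 15. It was also lost with a lower floor, without the filter on dim probe sets, with trended and robust variances, and when replicate numbers were fitted as a block for males as well as females. In bulk tissue, a change in the number of cells that make an RNA and a change in RNA per cell cannot be told apart.

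Markers of other cell types were read beside Hbegf. The summed intensity of 10 fibroblast markers was between 1618 and 1676 in female sham and between 1271 and 1710 in male sham hearts. It was between 1665 and 2661 in female TAC and between 1866 and 2177 in male TAC hearts. Such a sum weighs its brightest probe set most. Here that was Dcn, the decorin gene, which averaged 835.1 units in sham and 1206.5 in TAC hearts. Of the 9 tested fibroblast genes 7 were higher with TAC, 1 was called (Postn, a matrix protein gene), and the median log2 change was 0.42, against -0.03 over all tested probe sets. An unadjusted p under 0.05 in limma was found for 7 of the 9, against 560 of all 7453. All 9 were higher in female than in male sham hearts, with a median of 0.42 against 0.05 over all tested probe sets. There, 4 had an unadjusted p under 0.05 in limma, against 351 of all 7453, and none was called. Of the 10 markers 6 lay above the floor on every array, while Col3a1 was below it on 3 arrays, Pdgfra and Postn on 2 each and Tcf21 on 13. The collagen gene Col1a1 averaged 117.8 units in sham and 171.7 in TAC hearts, and the collagen gene Col1a2 averaged 249.8 and 245.9. Whether the fibroblast content of the tissue has a part in the result for Hbegf was not tested.

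The summed intensity of 12 macrophage and leukocyte markers ranged from 405 to 463 over the sham arrays and from 403 to 473 over the TAC arrays. Of these markers 6 were below the floor on all arrays, the pan-leukocyte gene Ptprc and the macrophage genes Adgre1 and Itgam among them. The sums of the 9 endothelial markers ranged from 471 to 694 over sham and from 502 to 749 over TAC arrays. Those of the 7 smooth muscle markers ranged from 327 to 405 and from 237 to 401. These sums also weigh bright probe sets most. The brightest, Cd14, Eng and Smtn, averaged 150.1, 281.6 and 122.2 units in sham and 148.2, 276.0 and 107.8 in TAC hearts. No tested gene of these 3 lists was called, and their median log2 changes were -0.02, -0.01 and -0.18. Epithelial and nerve markers matter here because Erbb3 and Btc are best known from epithelia and Schwann cells. The sums of 9 epithelial and mesothelial markers ranged from 226 to 326 over sham and from 186 to 317 over TAC arrays, and those of 9 Schwann cell and nerve markers from 312 to 523 and from 236 to 495. Cdh1 and Mbp, the brightest of each list, averaged 132.4 and 134.1 units in sham and 116.0 and 158.8 in TAC hearts. Epcam, a defining epithelial gene, was below the floor on all 15 arrays, and at 0 on some of them.

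The principal receptor, Egfr, was bright enough to be measured by probe set 101840_at, which rests on an mRNA accession. Its intensity was 91.0, 87.1 and 80.1 in female sham hearts and 83.2, 77.1 and 77.6 in female TAC hearts. In male sham hearts it ran from 62.1 to 92.9 with a median of 72.1, and in male TAC hearts it was 71.1, 88.9 and 74.2. The TAC range lay inside the sham range. The log2 change with TAC was -0.02 ± 0.10 (SE), with a 95% interval of -0.23 to 0.20, or folds from 0.851 to 1.15. The group means ran from 73.9 ± 10.95 (SD, n = 6) in male sham to 86.0 ± 5.5 (SD, n = 3) in female sham, with male TAC at 78.1 ± 9.5 and female TAC at 79.3 ± 3.3 (SD, n = 3 each) in between. The ranges of neighbours in this order overlapped in all 3 cases.

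The other Egfr probe sets, 101841_at and 101842_g_at, rest on 1 and the same EST accession. Probe set 101842_g_at was dim, with 7 of the 15 arrays below the floor. It read 26.2, 19.3 and 25.1 units in female sham hearts and 14.8, 12.8 and 16.03 in female TAC hearts. In male sham hearts it ran from 12.1 to 37.3 with a median of 23.3, and in male TAC hearts it was 26.6, 30.6 and 19.8. As deposited, the female groups did not overlap, as for 5.74% of all tested probe sets, and the male groups did. The female sham value of 19.3 and all 3 female TAC values were below the floor, where signals have no reliable order, so these 4 arrays tie on the floored scale and no separation is read from them. No fold is given for the female groups, since all 3 female TAC arrays lay below the floor. The fit's value averaged over the sexes, -0.10 ± 0.15 (SE), sets those 3 TAC arrays to 20 and is no measured difference. Over the 15 arrays the 2 tested Egfr probe sets had a Pearson r of 0.315, and of 0.507 after the group means were taken away, a description in which both share the arrays and their scaling. Probe set 101841_at lay below the floor on all 15 arrays, between 0 and 17.3.

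Adam17, the sheddase, was measured by 1 probe set that was above the floor throughout. Its intensity was 45.9, 76.2 and 72.5 in female sham hearts and 75.8, 72.7 and 79.6 in female TAC hearts. In male sham hearts it ran from 53.3 to 73.0 with a median of 64.9, and in male TAC hearts it was 62.3, 50.5 and 77.2. The groups overlapped in both sexes, and female sham 1 had the lowest value of all 15 arrays. The log2 change with TAC was 0.11 ± 0.13 (SE), with a 95% interval of -0.16 to 0.38. It was 0.26 ± 0.19 (SE) in females and -0.04 ± 0.17 (SE) in males. The group means were 63.3 ± 13.4 in male TAC, 64.5 ± 6.4 in male sham, 64.9 ± 16.5 in female sham and 76.0 ± 3.5 in female TAC hearts (SD, n = 6 for male sham and 3 for the others). Each step in that order was smaller than the larger SD of the 2 neighbours.

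**Figure D2:**
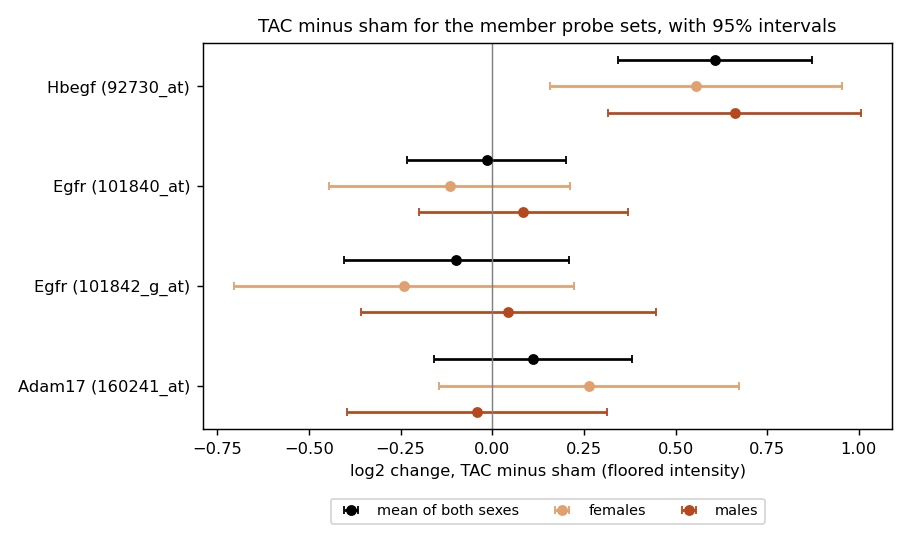
Log2 change of floored intensity, TAC minus sham, on the horizontal axis for the 4 tested member probe sets, averaged over the sexes and in each sex, with 95% intervals from the fit of all probe sets. The averaged value of Hbegf is 0.61, and those of the Egfr and Adam17 probe sets lie between -0.10 and 0.11, with intervals that include 0; all 3 female TAC arrays of Egfr 101842_g_at are at the floor.

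The remaining members were too dim for a comparison. Btc was below the floor on all 15 arrays and never exceeded 7.84 units. It was listed at 0 on 1 of the 9 sham arrays and on 4 of the 6 TAC arrays. The Erbb3 probe set 96771_at ran from 6.90 to 25.1 units and was above the floor on 1 array, male sham 9. The second, 101776_at, ran from 0 to 30.1 units and was above the floor on 1 array, male TAC 4. The arrays on which the probe sets passed the floor were different ones, and male TAC 4 read 19.1 units on 96771_at. No fold is given for these probe sets, since all groups lay at or under the floor apart from those single arrays.

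**Figure D3:**
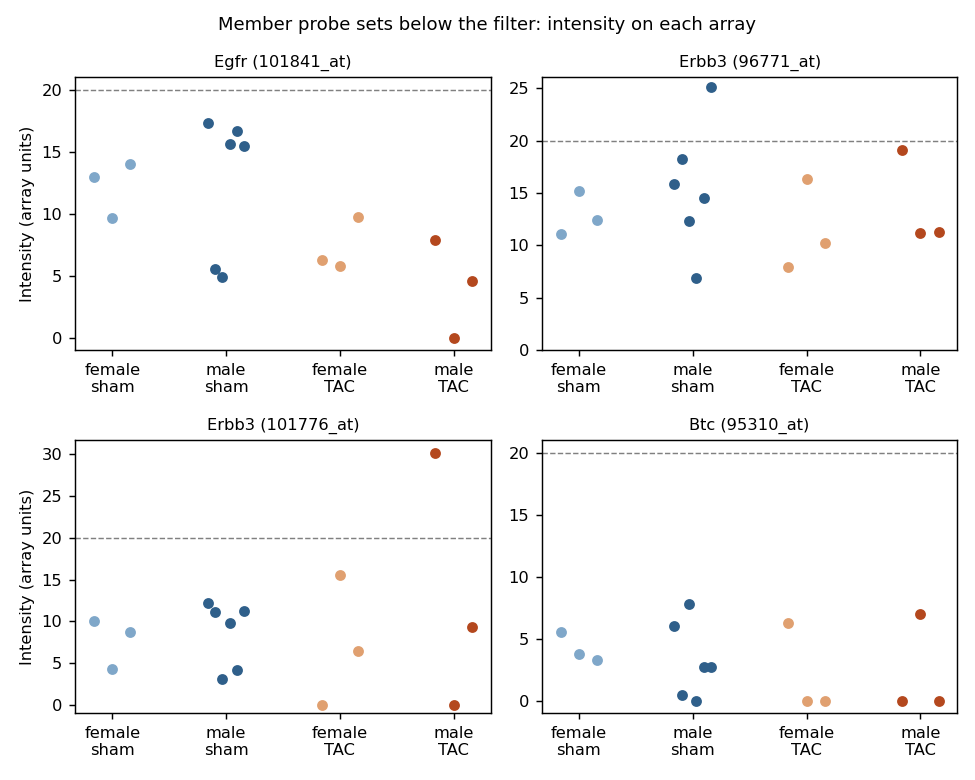
Intensity in array units on the vertical axis for the 4 member probe sets that did not pass the filter, with 1 point per array in 4 groups and the floor of 20 as a dashed line. Egfr 101841_at and Btc are below the line on all 15 arrays, and each Erbb3 probe set crosses it on 1 array, at 25.1 and 30.1.

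The genes were taken to be chosen on the comparison of TAC and sham hearts. Whether sex differences or the difference of the TAC change between the sexes had a part in the choice cannot be checked here. Both were tested with limma over all 7453 probe sets. No member was called for a difference between female and male sham hearts, where the share called was 0% of all probe sets and 351 had an unadjusted p under 0.05. Hbegf had 0.22 ± 0.16 on the log2 scale (female minus male, SE, adjusted p = 0.974, 95% interval -0.13 to 0.56). Egfr 101840_at had 0.23 ± 0.13 (SE, adjusted p = 0.974, interval -0.06 to 0.51). Its second probe set had -0.06 ± 0.19 (SE, adjusted p = 0.996). Adam17 had -0.02 ± 0.17 (SE, adjusted p = 0.997, interval -0.37 to 0.33).

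No member was called either for the difference of the TAC change between the sexes, where the share called was again 0% and 191 probe sets had an unadjusted p under 0.05 in limma. The difference was -0.11 ± 0.25 for Hbegf (female minus male, SE, adjusted p = 1.00, 95% interval -0.63 to 0.42). It was -0.20 ± 0.21 for Egfr 101840_at and 0.30 ± 0.26 for Adam17 (SE, adjusted p = 1.00 for each). For 101842_g_at the fit gave -0.28 ± 0.29 (SE, adjusted p = 1.00), with all 3 female TAC arrays at the floor. The interval for Hbegf leaves room for differences about as large as its averaged change.

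The other ligands and receptors of the family were read from a list of 9 genes, of which 5 had a probe set and 1, Egf, was tested. Egf, the ligand that names the family, lay between 10.9 and 30.4 units and above the floor on 5 arrays. All 3 male TAC arrays were below it, so no log2 change is given. Erbb4, the receptor for neuregulins and HB-EGF in heart muscle cells, was below the floor on all 15 arrays, between 1.16 and 17.0 units. Tgfa and Ereg, 2 further ligands of the EGF receptor, were also below the floor on all arrays, with highest values of 7.59 and 14.1. Nrg3, a neuregulin, passed the floor on 3 arrays with a highest value of 23.4. A dim probe set can reflect a weak probe as well as little RNA, so no absence is read from these values.

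Over the whole pathway, 126 genes in 6 lists were looked up beside the members, 96 had a probe set and 66 were tested. With TAC, 31 were higher and 35 lower, with a median log2 change of -0.01 against -0.03 over all tested probe sets. Of all tested probe sets 41.8% were higher, a share to be read beside the counts of each list below. None was called higher and 1 was called lower (1.52% of the 66, against 0.322% of all probe sets called in either direction). At an unadjusted p under 0.05 there were 8 of the 66, against 560 of all 7453. None of the 66 was called for the sex difference in sham hearts or for the difference of the TAC change between the sexes, where 0% of all probe sets were. In these comparisons 8 and 2 of the 66 had an unadjusted p under 0.05 in limma, against 351 and 191 of all 7453. The groups of 9 sham and 6 TAC arrays did not overlap for 2 genes, Pik3ca and Eps15, both lower with TAC, where 0.161% of all probe sets were separated downwards. For each of them 3 of the 6 TAC arrays lay below the floor and were set to 20 in the fit, while all 9 sham arrays lay above it. The lists were chosen with earlier results of these data known.

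**Figure D4:**
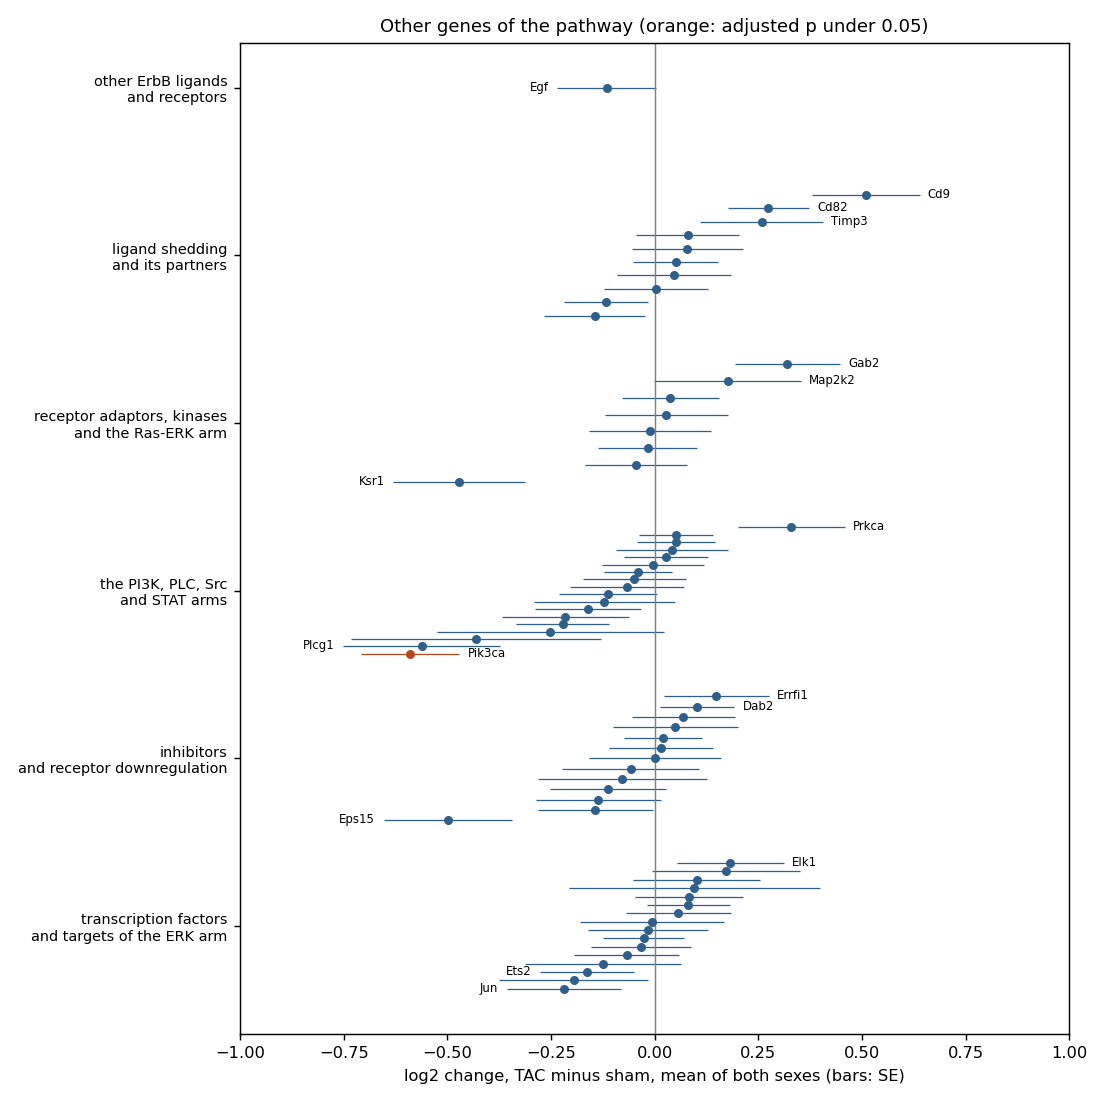
Log2 change of floored intensity, TAC minus sham and averaged over the sexes, on the horizontal axis for the 66 tested pathway genes in 6 lists, with SE bars; named genes are labelled, and the male TAC arrays of Egf are all at the floor. Pik3ca, in orange at -0.59, is the gene past an adjusted p of 0.05, and Cd9 at 0.51 is the highest. For Pik3ca and for Eps15, 3 of the 6 TAC arrays are at the floor.

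Among the 10 tested genes of ligand shedding and its partners, 8 were higher with TAC and none was called, with a median of 0.06. Cd9 encodes a tetraspanin that associates with the membrane-bound form of HB-EGF. It read 27.5, 21.3 and 24.0 in female sham and 24.6, 40.8 and 32.5 in female TAC hearts. In male sham hearts it ran from 18.0 to 27.8 with a median of 21.8, and in male TAC hearts it was 28.4, 42.1 and 33.4. Of the 6 TAC values, that of female TAC 1 alone lay within the sham range. The log2 change was 0.51 ± 0.13 (SE) and did not pass (adjusted p = 0.161 in limma). It passed in limma when the arrays were centred on their medians (adjusted p = 0.0283) or quantile normalized (0.0296). In both of these settings more probe sets were called over the whole array, as the closing section gives. Cd9 was named for its small p in this same comparison. Cd82, another tetraspanin, had 0.27 ± 0.10 (SE, adjusted p = 0.441), while its second probe set had -0.14 ± 0.12 (SE). Timp3, an inhibitor of ADAM17, had 0.26 ± 0.15 (SE, adjusted p = 0.748). The protease Adam10 had -0.14 ± 0.12 (SE).

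In the list of adaptors, kinases and the Ras-ERK arm, 4 of 8 tested genes were higher and 4 lower, with a median of 0.01 and no call. Ksr1, a scaffold of the ERK cascade, had -0.47 ± 0.16 (SE, adjusted p = 0.407 in limma), and its second probe set had -0.05 ± 0.14 (SE). Gab2, a docking protein, had 0.32 ± 0.13 (SE, adjusted p = 0.544), and Map2k2, a kinase that activates ERK, had 0.18 ± 0.18 (SE, adjusted p = 0.877).

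In the list of the PI3K, PLC, Src and STAT arms, the median was -0.09, 13 of 18 tested genes lay below 0, and 1 was called. Pik3ca, a catalytic subunit of PI3K, lay between 26.1 and 42.1 units with a median of 33.8 in the 9 sham hearts. It lay between 17.1 and 25.0 with a median of 20.1 in the 6 TAC hearts, 3 of them below the floor and set to 20 for the fit. The log2 change was -0.59 ± 0.12 (SE, adjusted p = 0.0459 in limma), and the call was lost when replicate numbers were a block in females, the sex whose numbers deviated together (adjusted p = 0.0575). It was also lost in 13 of the 15 fits that left out 1 array, with an adjusted p of up to 0.188. A second Pik3ca probe set was too dim to be tested. Plcg1, a phospholipase that receptors of this family activate, had -0.56 ± 0.19 (SE, adjusted p = 0.408), and Prkca, a protein kinase C, had 0.33 ± 0.13 (SE, adjusted p = 0.531).

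Inhibitors and genes of receptor downregulation had a median of 0.00, with 7 of 13 tested genes higher and no call. Eps15, an adaptor of receptor endocytosis, lay between 24.5 and 49.1 units in sham hearts and between 4.39 and 24.0 in TAC hearts. With 3 of the 6 TAC arrays set to the floor, its log2 change was -0.50 ± 0.16 (SE) and did not pass (adjusted p = 0.320 in limma). Errfi1, a feedback inhibitor of the EGF receptor that the receptor itself induces, had 0.15 ± 0.13 (SE, adjusted p = 0.851), and Dab2, an endocytic adaptor, had 0.10 ± 0.09 (SE, adjusted p = 0.856). Lrig1, which promotes degradation of the receptor, had -0.14 ± 0.15 (SE), with 5 of the 15 arrays below the floor, 2 of the 3 male TAC arrays among them.

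Transcription factors and targets of the ERK arm had a median of -0.01, with 7 of 16 tested genes higher and no call. Jun had -0.22 ± 0.14 (SE, adjusted p = 0.775 in limma), Ets2 had -0.16 ± 0.11 (SE, adjusted p = 0.808) and Elk1, a direct substrate of ERK, had 0.18 ± 0.13 (SE, adjusted p = 0.810). Egr1, an early response gene, had 0.17 ± 0.18 (SE). Averaged over the sexes, the log2 changes of this list lay between -0.22 and 0.18. They were wider within a sex, between -0.58 and 0.29 in females and between -0.60 and 0.34 in males, and none was called there. Atf3, a stress-induced factor singled out after its values were seen, was at -0.58 ± 0.28 (SE) in females and 0.34 ± 0.25 (SE) in males.

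The genes whose pattern over the 15 arrays was most like that of Hbegf were Ccn2, Ccn1, Ccdc80, Bgn and Nppa, by the Pearson r of log2 values. Ccn2 encodes connective tissue growth factor and had r = 0.926, and Ccn1, which encodes a related matrix protein, had r = 0.905. Ccdc80, a secreted protein of the matrix, had r = 0.894, Bgn, the proteoglycan biglycan, had r = 0.887, and so had Nppa. Sham and TAC arrays form separate clusters for several of these genes, and all values of an array share its scaling, so r was also taken within each cluster. The genes were picked for the highest r on these same arrays, so the values within clusters are parts of what picked them and no independent support. Within the 9 sham arrays alone, r with Hbegf was 0.660 for Ccn2, 0.679 for Ccn1, 0.821 for Ccdc80, 0.727 for Bgn and 0.529 for Nppa. Within the 6 TAC arrays it was 0.848, 0.875, 0.715, 0.572 and 0.671 in the same order. Acta1, the skeletal actin gene that marks the load response, had 0.811 over all arrays, 0.230 within sham and -0.15 within TAC arrays. Without female TAC 3 and male sham 7, the arrays farthest from the median of Hbegf, r over the other 13 was between 0.853 and 0.890 for the first 5 genes.

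Ccn2 averaged 61.6 ± 6.5 units in female sham, 63.9 ± 15.3 in male sham, 174.5 ± 68.7 in female TAC and 132.9 ± 9.8 in male TAC hearts (SD, n = 3, 6, 3 and 3). Ccn1 averaged 22.6 ± 1.1, 20.2 ± 6.3, 34.2 ± 9.4 and 30.2 ± 5.8 units in the same order. Its sham values lay between 20.7 and 26.2 units apart from male sham 7, which read 7.97 and was set to 20. The r of Ccn1 within sham arrays thus rests on values at or near the floor. Female TAC 3, the array with the highest Hbegf, also had the highest Ccn2 and Ccn1, at 234.2 and 44.9 units. It did not have the highest Nppa, which was found in female TAC 2.

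**Figure D5:**
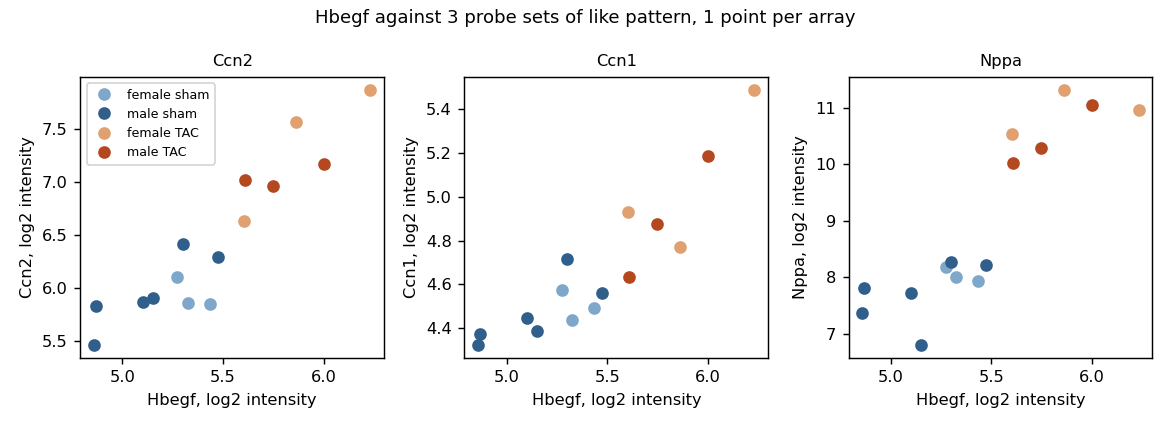
Log2 intensity of Ccn2, Ccn1 and Nppa on the vertical axes against log2 intensity of Hbegf on the horizontal axis, with 1 point per array coloured by group. The TAC points lie to the right of the sham points in each panel, and within the 6 TAC arrays r is 0.848 for Ccn2 and 0.875 for Ccn1.

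Once each group's mean was taken away, other genes came closest to Hbegf. They were Tinagl1 (r = 0.890), Orc4 (0.873), Slc2a5 (0.850), Ptprr (0.849) and Atp2a3 (0.844), over 15 arrays whose values then share 4 subtracted means. None of these 5 had an r over 0.45 with Hbegf before that step, the highest being 0.445 for Ptprr. The likeness is the highest among 7453 probe sets on few arrays and is given as a description. With group means taken away, r with Hbegf was 0.808 for Ccn2, 0.767 for Ccn1, 0.742 for Ccdc80, 0.577 for Bgn and 0.521 for Nppa, also a description.

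Egfr and Adam17 did not follow Hbegf over the arrays. The Pearson r of log2 values was 0.138 between Hbegf and Egfr 101840_at, 0.130 between Hbegf and Adam17 and -0.24 between Egfr and Adam17, and within groups it was -0.07, -0.19 and -0.34. The 3 patterns most like Egfr were those of Acp1 (r = 0.728), Dad1 (0.723) and Nfe2l3 (0.719). Those most like Adam17 were Atxn7l3b (0.817), Chmp2a (0.814) and Hoxb5 (0.806). The log2 change with TAC of these 6 genes lay between -0.09 and 0.07.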

How the data were processed

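The authors deposited a table of probe-set intensities on a linear scale for 15 arrays; which software and scaling made them is not given in the sources used here. Medians of the arrays differed by at most 1.26 times, and the deposited level was kept. The number of arrays limits the precision. Members and gene lists were chosen with earlier results of these data known. Probe sets were named from the platform annotation, with symbols updated through RefSeq gene numbers (GRCm38.p6, names only); of 12422 probe sets without controls, 10833 had 1 symbol and 10817 of these matched.

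Values were floored at 20, the higher of 20 and the 30th percentile (11.9), log2 was taken, and the 60% with the highest mean (7453) were tested. The floor shrinks changes of dim genes. A model with a mean for each group was fitted across the arrays by limma 3.58.1 in R 4.3.3 (lmFit, eBayes), with Benjamini-Hochberg adjustment over all tested probe sets, called at 0.05. The method was tested on simulated data. There, a log2 change of 0.5 was called in 38.8% of cases for the averaged effect and in 16.4% within either sex. For the difference of the TAC change between the sexes it was called in 8.96%. Changes of that size can thus go uncalled. The brightest tested probe set stood for a gene in lists. Named were all member probe sets; called pathway genes and the 3 of smallest p per list; the 3 genes most like each tested member, 5 for Hbegf; and marker genes. Lrig1, Adam10 and Egr1 were added after their values were seen. No dates or batches are given in the labels.

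Same-numbered sham and TAC arrays deviated together in females (r = 0.117 to 0.270) but not in males (-0.08 to 0.06), so a block in females was added after seeing the data. The other settings were varied as the closing section says.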

Additional observations from a re-analysis of the deposited data

Results flagged for a closer look

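In the Erbb3 probe set 96771_at, male sham 9 read 25.1 units and stood apart from the other 5 male sham hearts, the next of which read 18.3. The other 5 lie below the floor of 20, so on the floored scale they are equal and any single value above it is set apart. Of 23 groups examined this way, 1 was set apart. The limit used is Dixon's 95% critical value, which by its construction about 1 in 20 groups of normally distributed values pass, and whether that rate holds for floored values was not tested. None of 24 probe sets moved one way in all TAC hearts of one sex and the opposite way in all of the other.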

How the results depend on the processing

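The log2 change of Hbegf with TAC stayed positive in each setting, between 0.42 with 20 added to each value instead of the floor and 0.67 with median centring over 9 settings, and between 0.52 and 0.68 without 1 array. It was called in 5 of the 9 settings and in 2 of the 15 fits without 1 array. With replicate numbers as a block for both sexes it was 0.65 and not called, and with the block in females alone it was 0.61 and called. Without 1 array, the log2 change ran from -0.06 to 0.02 for Egfr 101840_at, from -0.17 to -0.01 for 101842_g_at (female TAC arrays at the floor) and from -0.01 to 0.19 for Adam17. None of these values moved by more than the spread between replicates, and changes of sign concern values that were not called. With the stricter filter 101842_g_at was not tested.

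The number of probe sets called for the averaged effect, 24, was 45 with quantile normalization and 45 with median centring, 10 with a lower floor, 13 without the filter on dim probe sets, 8 with the replicate block in both sexes, 23 with it in females alone, and 12 to 29 without 1 array. It was under 16 without any female sham, male sham 6, female TAC 2 or male TAC 5. In females, 6 became 10 with trended and robust variances, 3 with the replicate block and 2 to 8 without 1 array, lowest without female sham 1. In males, 10 became 18 with median centring, 3 with the lower floor, 6 with the offset, 4 without the filter, 16 with trended and robust variances, 3 with the replicate block and 3 to 12 without 1 array, with 6 or fewer without any male sham, female sham 1 or 2, female TAC 3, or male TAC 4 or 5. The sex difference in sham hearts had 2 calls without the filter and 1 with trended and robust variances, none of them a member. The cause was not tested. Pik3ca lost its call in 6 of 8 settings (it was not tested under the stricter filter) and in 13 of the 15 fits without 1 array. No member was called for a sex difference or for the difference between the sexes in any setting tried. Dim probe sets, with 42.4% to 48.4% of each array below the floor, limit what can be said of Erbb3, Btc and most ligands.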
